A study of Mus musculus with 12 samples.

Results

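Expression of the enzymes that build fatty acids from acetyl-CoA, and of the transcription factors that drive them, was examined in the mouse EDL (extensor digitorum longus), which extends the toes and consists mainly of fast fibers. The 10 genes were chosen by name from the 17752 genes of the table: Srebf1, Mlxipl, Acly, Acaca, Acacb, Fasn, Scd1, Scd2, Elovl6 and Me1. RNA-seq had been performed on male mice in 4 groups of 3 libraries each, which crossed genotype with training. The labels called the genotypes Ctrl and Nrip1KO and the states Sedentary and Trained. Knockout mice carried floxed alleles of Nrip1, the gene of the nuclear receptor corepressor RIP140, and a Cre recombinase driven by the muscle creatine kinase promoter, which acts in heart and in skeletal muscle, whereas littermate controls kept the gene. The Cre mice were C57BL/6JN. Trained mice had running wheels at night for 8 weeks from 8 weeks of age, mice that ran little were left out, sedentary mice had no wheels, and the muscles came from a cohort that underwent no other testing. Cells other than muscle fibers, adipocytes among them, keep Nrip1 in this model.

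The targeted gene went against the labels. Nrip1 was between 2.53 and 4.76 FPKM in the 6 libraries labelled WT and between 14.9 and 20.7 FPKM in the 6 libraries labelled strNrip1-/-. FPKM are fragments per kilobase of transcript and scaled to depth, so they can be compared between genes of different length. The log2 difference was 2.08 in sedentary and 2.14 in trained libraries (limma adjusted p = 2.77e-04 and 2.08e-04). Every genotype direction below follows the labels, and libraries are called labelled WT or labelled strNrip1-/-. Depth, estimated from the spacing of low values, was 19.7 to 28.6 M fragments, so that 3 fragments on a gene of 2 kb were worth 0.0524 to 0.0763 FPKM.

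Fatty acid synthesis starts with citrate that leaves the mitochondrion. ATP citrate lyase (Acly) splits it to acetyl-CoA, acetyl-CoA carboxylases (Acaca and Acacb) make malonyl-CoA, fatty acid synthase (Fasn) assembles palmitate with reducing power that malic enzyme (Me1) helps to supply, and Elovl6 and the stearoyl-CoA desaturases (Scd1 and Scd2) lengthen and desaturate the product. Transcription of these genes is driven by SREBP-1, the product of Srebf1, which responds to insulin and sterols, and by ChREBP, the product of Mlxipl, which responds to glucose. Liver and adipose tissue are the main sites of the pathway. In muscle the malonyl-CoA made by the mitochondrial carboxylase Acacb is known chiefly as an inhibitor of fatty acid entry into mitochondria.

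The sequences before the starts of the genes are shown because Srebf1 and Me1 were the members that differed between labelled genotypes and because Fasn was highest in the libraries with the most fat transcripts. RefSeq start sites on GRCm38.p6 gave 12 windows of 250 bases before and 50 after the start for 8 of the 10 members. Scd1 and Scd2 were not among them. Both strands were searched for the E-box CACGTG, the sterol response element TCACNCCAC, the NF-Y box CCAAT and the estrogen-related receptor site TCAAGGTCA. Matches are in capitals, and where several start sites are given the deposited gene level does not separate them. Only bases before the start and outside annotated exons of the gene are printed.
Srebf1, start within the gene, chr11:60210472-60210721, minus strand: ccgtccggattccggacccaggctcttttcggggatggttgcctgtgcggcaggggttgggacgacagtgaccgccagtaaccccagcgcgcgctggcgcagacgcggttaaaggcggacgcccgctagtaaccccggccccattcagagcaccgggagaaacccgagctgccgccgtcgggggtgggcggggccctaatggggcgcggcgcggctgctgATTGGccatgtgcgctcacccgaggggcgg
Srebf1, start nearer the gene's 5′ end, chr11:60220628-60220877, minus strand: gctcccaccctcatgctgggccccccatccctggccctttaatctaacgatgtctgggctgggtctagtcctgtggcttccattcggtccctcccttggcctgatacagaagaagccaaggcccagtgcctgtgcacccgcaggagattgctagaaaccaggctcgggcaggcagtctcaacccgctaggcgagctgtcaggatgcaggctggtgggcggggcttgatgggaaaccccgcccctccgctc
Me1, chr9:86695954-86696164, minus strand: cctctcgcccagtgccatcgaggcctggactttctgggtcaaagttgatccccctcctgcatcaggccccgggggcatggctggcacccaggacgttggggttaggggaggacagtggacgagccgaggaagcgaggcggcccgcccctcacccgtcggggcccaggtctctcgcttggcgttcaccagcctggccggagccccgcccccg
Fasn, chr11:120824548-120824797, minus strand: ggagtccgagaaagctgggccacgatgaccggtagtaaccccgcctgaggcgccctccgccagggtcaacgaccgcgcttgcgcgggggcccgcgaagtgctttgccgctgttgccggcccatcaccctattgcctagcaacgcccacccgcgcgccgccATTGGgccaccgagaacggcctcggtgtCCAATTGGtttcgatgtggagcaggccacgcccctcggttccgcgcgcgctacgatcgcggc
The Srebf1 start at the lower coordinate had an NF-Y box that began 30 bases before it, the other printed Srebf1 start and the printed Me1 start had none of the 4 motifs in their whole windows, and the Fasn window had 3 NF-Y boxes, of which 2 overlap. The NF-Y box of Me1 lay before another start, inside the gene, whose window is not printed. Another Srebf1 start, at the 5′ end of the gene, is not printed either. Its window had an NF-Y box that began 166 bases before the start. Over all member windows, 7 of 12 held an NF-Y box, 1 an E-box and 1 a sterol response element, the last 2 both in Mlxipl, and 0 the receptor site. The shares over all 32851 RefSeq windows of this length were 37.4%, 7.15%, 1.24% and 0.423%. A match describes letters only. On GRCm38, Srebf1 (ENSMUSG00000020538) spans chr11:60199089-60222581 on the minus strand, Me1 (ENSMUSG00000032418) chr9:86581371-86695953 on the minus strand and Fasn (ENSMUSG00000025153) chr11:120805846-120824547 on the minus strand. Acacb (ENSMUSG00000042010) spans chr5:114146535-114250761 on the plus strand and Scd1 (ENSMUSG00000037071) chr19:44394455-44407879 on the minus strand, beside Scd2 (ENSMUSG00000025203) at chr19:44293674-44306864 on the plus strand.

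The members spanned a wide range of levels in EDL. Me1 had the highest mean over the 12 libraries, 83.9 ± 17.4 FPKM (SD), followed by Acacb at 48.7 ± 11.1 FPKM and Mlxipl at 37.0 ± 4.06 FPKM. Scd1 (18.9 ± 15.1 FPKM), Srebf1 (15.4 ± 4.63 FPKM), Acly (9.07 ± 2.68 FPKM), Fasn (6.23 ± 2.88 FPKM) and Scd2 (5.66 ± 0.905 FPKM) formed a middle group in which the ranges of neighbors overlapped. Scd1 exceeded Srebf1 in 7 of 12 libraries and Fasn exceeded Scd2 in 6 of 12. Acaca, the cytosolic carboxylase, was low at 2.24 ± 0.609 FPKM and lay apart from Scd2 above it and from Elovl6 below it. Elovl6 was near the bottom at 0.431 ± 0.241 FPKM, and its lowest library still rested on 35.0 fragments. The 2 carboxylases, which make the same product in different places, were far apart, with 12.1 to 43.4 times as much Acacb as Acaca per library.

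**Figure D1:**
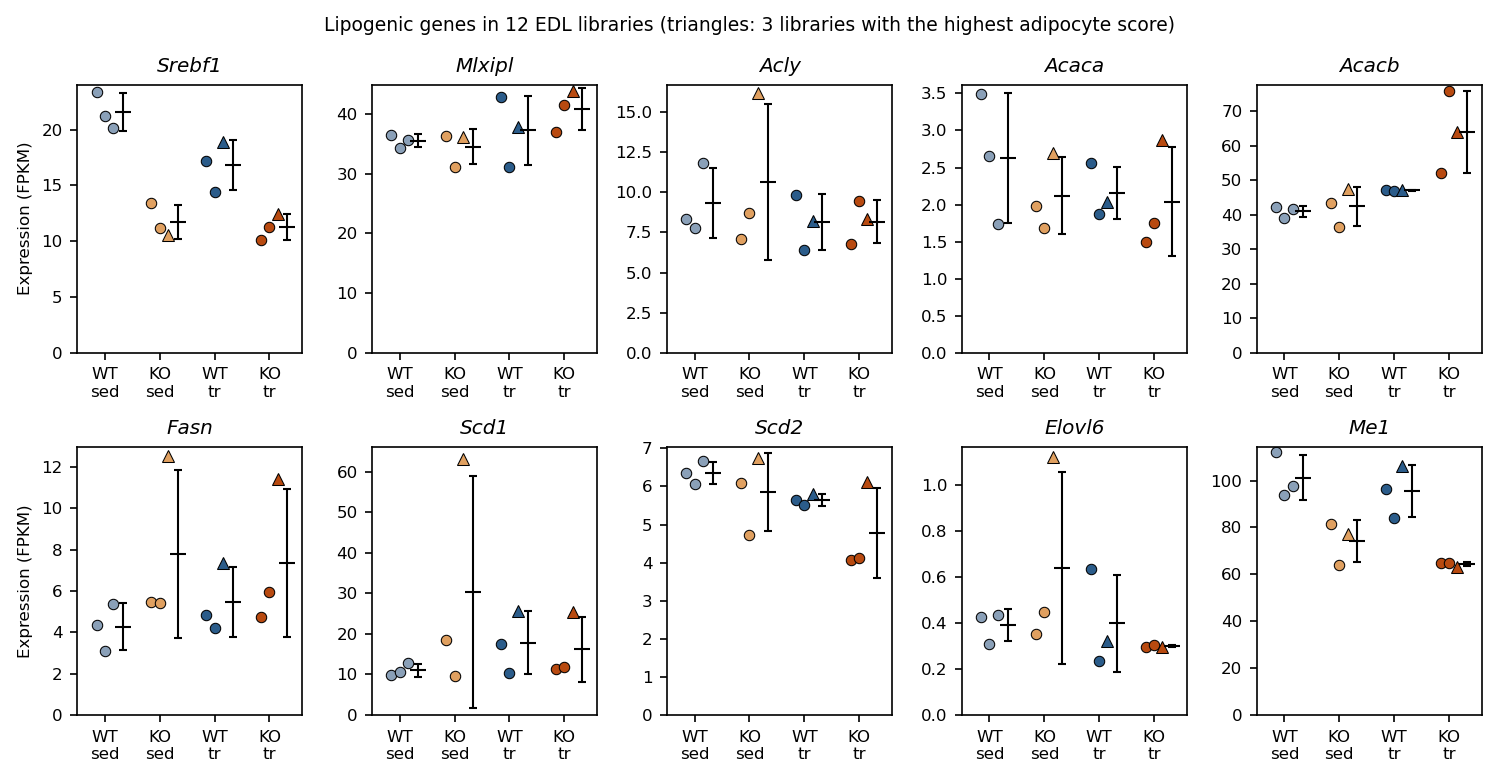
Expression (FPKM, linear axes from 0) of the 10 lipogenic genes in each library by group (WT and KO, labelled WT and labelled strNrip1-/-; sed, sedentary; tr, trained), with mean and SD (n = 3) as a bar beside the points and triangles for the 3 libraries with the highest adipocyte score. Srebf1 and Me1 were lower in all libraries labelled strNrip1-/- than in any library labelled WT of the same state, whereas the highest Fasn and Scd1 values belong to triangles.

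Adipocyte transcripts were not equally present in the 12 muscles. An adipocyte score was formed as the mean log2(FPKM + 0.5) of Adipoq, Lep, Retn, Cfd and Plin1, which encode adiponectin, leptin, resistin, adipsin and perilipin. It was 3.23 in labelled strNrip1-/- sedentary replicate 3, 2.92 in labelled strNrip1-/- trained replicate 3 and 2.85 in labelled WT trained replicate 3, and between 0.905 and 1.95 in the other 9 libraries. Adipoq itself was 10.3, 6.58 and 7.71 FPKM in these 3 libraries, and 0.791 to 3.59 FPKM in the others. Of the 11 adipocyte markers listed, 1, Acvr1c, was at 0 in 1 library and at most 0.138 FPKM in any, whereas the others were above 0 in all. The brown fat gene Ucp1 was at 0 in 2 libraries and reached 3.80 FPKM in labelled strNrip1-/- sedentary replicate 3. Results below are given with and without these 3 libraries where that changed a call.

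Srebf1 was lower in labelled strNrip1-/- muscle in both states. In sedentary mice it was 23.4, 21.3 and 20.1 FPKM in the labelled WT libraries and 13.4, 11.2 and 10.6 FPKM in those labelled strNrip1-/-. The groups did not overlap, and the lowest labelled WT value lay well above the highest labelled strNrip1-/- value. The group means were 21.6 ± 1.66 and 11.7 ± 1.5 FPKM (SD, n = 3 each), which gave a log2 difference of -0.86 (SE 0.123, limma adjusted p = 0.00359). In trained mice the values were 17.2, 14.4 and 18.9 FPKM against 10.1, 11.3 and 12.5 FPKM. These groups did not overlap either, although the gap was narrower. The log2 difference was -0.55 (SE 0.123, limma adjusted p = 0.0241). Srebf1 was the member whose sedentary call was kept under all 24 alternative settings, with log2 differences from -1.01 to -0.78 and adjusted p from 0.00195 to 0.0276. The trained call was lost under 8 of 24, 4 of which left out a single trained library (labelled WT replicate 1 or 3, labelled strNrip1-/- replicate 1 or 2, adjusted p 0.0723 to 0.0930), with an adjusted p of 0.119 without the 3 libraries of high adipocyte score (log2 difference -0.54).

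Me1, which makes cytosolic NADPH by converting malate to pyruvate, showed the same direction. Sedentary libraries were at 112, 93.8 and 97.8 FPKM when labelled WT and at 81.3, 64.2 and 77.3 FPKM when labelled strNrip1-/-. Trained libraries were at 96.5, 84.2 and 106 FPKM against 64.8, 64.7 and 63.3 FPKM. In neither state did the groups overlap, and the trained labelled strNrip1-/- libraries were close to each other (SD 0.812 FPKM, n = 3). The log2 difference was -0.45 (SE 0.108, limma adjusted p = 0.0467) in sedentary and -0.56 (SE 0.108, limma adjusted p = 0.0120) in trained libraries. The sedentary call lay close to the threshold and was lost under 17 of 24 alternative settings, with adjusted p up to 0.297. Leaving out single libraries ended it for 10 of 12, all but labelled WT trained replicates 2 and 3. The trained call was lost under 5 of 24, among them without labelled WT trained replicate 3 (adjusted p = 0.0520) and without labelled strNrip1-/- trained replicate 3 (adjusted p = 0.0522). Without the 3 libraries of high adipocyte score the adjusted p was 0.115 in sedentary and 0.162 in trained libraries, at log2 differences of -0.48 and -0.47.

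Srebf1 and Me1 were the only members called between labelled genotypes, a call being an adjusted p under 0.05 and a fold change above 1.2. Of the 9 members tested, 2 were called lower and 0 higher in sedentary libraries, where 3.51% of all 12744 genes tested were called in either direction. In trained libraries 2 were called lower and 0 higher, against 5.98% of all genes. Elovl6 was the member below the filter of a mean of 0.5 FPKM. The median log2 difference over the 9 members was -0.04 in sedentary and -0.10 in trained libraries, beside medians of -0.00103 and 0.00661 over all genes tested. An unadjusted p under 0.05 was reached by 2 members in sedentary and 3 in trained libraries. Without the 3 libraries of high adipocyte score, sedentary libraries gave 1 member called and trained ones 0 (2 and 2 with the adipocyte score as a covariate). Scaling each library to the same FPKM sum left 1 and 0 members called.

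Beside these 2 genes, the sums of endothelial and fast fiber markers did not overlap between labelled genotypes in either state. Those of adipocyte and brown fat markers did not in sedentary libraries, and that of fibroblast markers did not in trained ones. The sums were not tested and no marker was called. How many of all genes did not overlap between the groups was not counted. Of 8 adipocyte markers tested, 8 were higher in sedentary labelled strNrip1-/- libraries, 4 of them at an unadjusted limma p under 0.05 and 0 called, and 8 were higher in trained ones, 0 of them unadjusted. The summed level of all 11 was 190 to 227 FPKM in labelled WT and 247 to 369 FPKM in labelled strNrip1-/- sedentary libraries, and 212 to 256 against 230 to 347 FPKM in trained ones, which overlapped. Most of each sum came from Fabp4, a fatty acid binding protein also made in endothelium. Its sedentary values were 158.6 to 188.6 against 188.3 to 235.5 FPKM, which overlapped. Of 6 endothelial markers, 0 were called by limma, and 3 in sedentary and 2 in trained libraries reached an unadjusted p under 0.05, all higher. Their summed level was 67.3 to 74.7 against 80.7 to 91.7 FPKM in sedentary and 70.3 to 76.5 against 83.9 to 88.4 FPKM in trained libraries. Of 6 fast fiber genes, 0 were called and 4 reached an unadjusted p under 0.05 in each state, all lower in labelled strNrip1-/- libraries. Their sum was 96551 to 106328 against 72405 to 94320 FPKM in sedentary and 95912 to 117855 against 81048 to 85470 FPKM in trained libraries. The sum of 4 fibroblast markers was 345 to 392 against 303 to 337 FPKM in trained libraries and overlapped in sedentary ones. That of 2 brown fat markers was 0.103 to 0.414 against 0.624 to 7.11 FPKM in sedentary libraries and overlapped in trained ones. The sums of macrophage and Schwann cell markers overlapped in both states. None of the endothelial or fast fiber markers was at 0. With the adipocyte score as a covariate the Srebf1 differences were -0.94 and -0.57 and those of Me1 -0.55 and -0.58. The part of the other cell types was not tested. In bulk muscle, fewer cells of a type and less RNA per cell cannot be told apart.

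**Figure D2:**
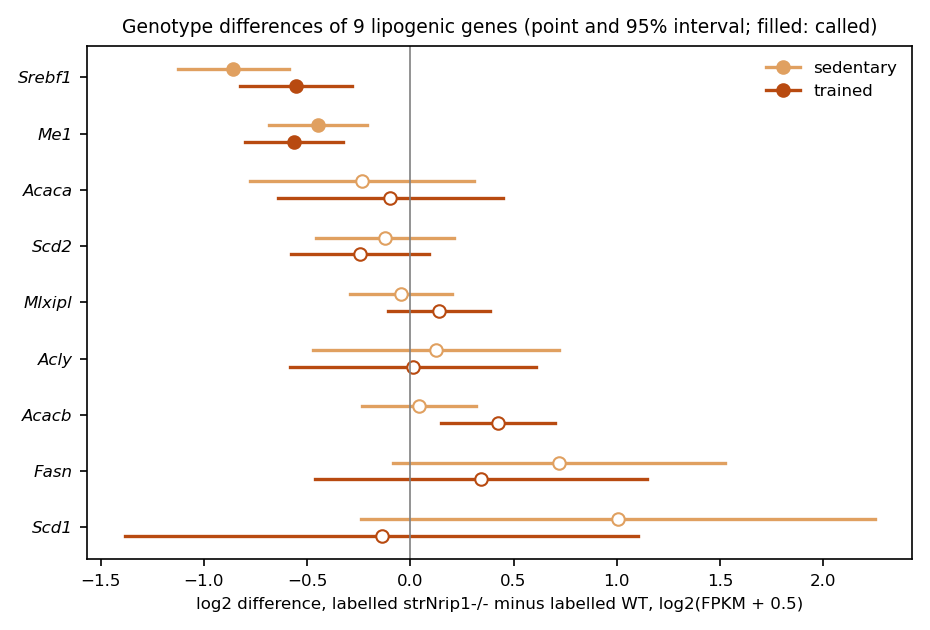
Log2 difference on log2(FPKM + 0.5) between labelled strNrip1-/- and labelled WT libraries for the 9 lipogenic genes tested, with 95% intervals from limma, in sedentary and trained mice; filled points were called. The intervals of Srebf1 and Me1 lie below 0 in both states, and those of Fasn and Scd1 are the widest.

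Mlxipl, the gene of ChREBP, did not follow Srebf1. It was 36.6, 34.4 and 35.7 FPKM in labelled WT and 36.3, 31.1 and 36.2 FPKM in labelled strNrip1-/- sedentary libraries. Trained libraries were at 42.8, 31.1 and 37.8 FPKM against 37.0, 41.6 and 43.9 FPKM. The groups overlapped in both states, and the log2 differences were -0.04 (95% interval -0.29 to 0.20) and 0.14 (95% interval -0.11 to 0.39), neither called. Its sign in sedentary libraries turned when nuclear genes were scaled to the same sum. Srebf2 is the gene of the sterol regulator SREBP-2. The ratio of Srebf1 to Srebf2 was 3.14 to 4.06 in sedentary labelled WT and 1.68 to 2.36 in sedentary labelled strNrip1-/- libraries. In trained libraries it was 2.25 to 2.95 against 1.82 to 1.97, a narrower gap.

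Acacb, the mitochondrial carboxylase, was not called between labelled genotypes, although its trained groups were apart. Sedentary libraries were at 42.2, 39.2 and 41.6 FPKM when labelled WT and at 43.5, 36.4 and 47.6 FPKM when labelled strNrip1-/-. Trained libraries were at 47.2, 47.0 and 47.2 FPKM against 52.2, 75.8 and 64.1 FPKM. The groups overlapped in sedentary mice and did not overlap in trained mice, where the labelled WT libraries were nearly equal and the labelled strNrip1-/- libraries were spread. The trained difference of 0.42 (SE 0.126, limma adjusted p = 0.0754) was not called. Leaving out labelled strNrip1-/- trained replicate 1 made it a call at 0.56 (adjusted p = 0.0216), as did leaving out labelled strNrip1-/- sedentary replicate 2 (adjusted p = 0.0498), and leaving out labelled strNrip1-/- trained replicate 2, the highest, lowered it to 0.29. The sedentary difference was 0.04 (95% interval -0.23 to 0.32). Acaca was 3.50, 2.66 and 1.73 FPKM in labelled WT and 1.98, 1.68 and 2.70 FPKM in labelled strNrip1-/- sedentary libraries. Its groups overlapped in both states, and its interval in trained libraries ran from -0.64 to 0.45.

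The ratio of Me1 to Acacb was not planned and combines values already given above. It did not overlap between labelled genotypes in either state. It was 2.35 to 2.66 in sedentary labelled WT and 1.63 to 1.87 in sedentary labelled strNrip1-/- libraries. Trained libraries were at 1.79 to 2.25 and at 0.854 to 1.24. In 2 of 12 libraries, both labelled strNrip1-/- trained, Acacb exceeded Me1. The ratio of Me1 to Me3, a mitochondrial malic enzyme chosen for this comparison after its values were seen, was 1.47 to 1.68 against 0.782 to 1.17 in sedentary and 1.27 to 1.77 against 0.790 to 0.893 in trained libraries. The ratio of Me1 to Me2, the other mitochondrial malic enzyme, overlapped in both states, at 57.2 to 65.1 against 44.2 to 60.04 and at 40.9 to 67.7 against 31.1 to 65.2. Me3 was 65.2 ± 2.33 against 77.7 ± 9.97 FPKM in sedentary and 60.9 ± 5.17 against 75.6 ± 4.03 FPKM in trained libraries (SD, n = 3 each) and was not called in either state (limma adjusted p = 0.230 and 0.0863).

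Fasn and Scd1 were led by single libraries. Fasn was 4.34, 3.11 and 5.39 FPKM in labelled WT and 5.46, 5.43 and 12.5 FPKM in labelled strNrip1-/- sedentary libraries. The groups did not overlap by a narrow margin, 5.39 against 5.43 FPKM, and the third labelled strNrip1-/- library stood far above the rest. The log2 difference of 0.72 (SE 0.367, limma adjusted p = 0.370) was not called and was 0.34 without that library. Trained libraries were at 4.83, 4.19 and 7.37 FPKM against 4.72, 5.95 and 11.4 FPKM. These overlapped, and the difference of 0.34 (SE 0.367, limma adjusted p = 0.658) became -0.00360 without labelled strNrip1-/- trained replicate 3. Scd1 was 9.80, 10.6 and 12.9 FPKM in labelled WT and 18.5, 9.71 and 63.1 FPKM in labelled strNrip1-/- sedentary libraries, a range wider than that of any other member. Its log2 difference of 1.0 (SE 0.566, limma adjusted p = 0.432) was 0.27 without labelled strNrip1-/- sedentary replicate 3. In trained libraries Scd1 was at 17.4, 10.3 and 25.8 FPKM against 11.4, 11.9 and 25.4 FPKM, which overlapped.

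The libraries with the highest Fasn and Scd1 were those with the most adipocyte transcripts. Fasn, Scd1 and Scd2 had the highest value of their group in all 3 libraries of high adipocyte score, as did 3.10% of all 12744 genes tested. The 5 score genes were highest there too, which the choice of the libraries favors, and of the 6 adipocyte markers outside the score 1, Cidec, was. Against the mean of the other libraries of the group, Fasn was 2.30 times higher in labelled strNrip1-/- sedentary replicate 3, 1.63 times in labelled WT trained replicate 3 and 2.14 times in labelled strNrip1-/- trained replicate 3. Scd1 was 4.48, 1.86 and 2.18 times higher in the same order, and Scd2 1.25, 1.04 and 1.5 times. Outside the score, the ratios were 2.69, 1.81 and 1.84 for Cidec, a lipid droplet gene, 1.16, 0.959 and 1.2 for Fabp4, a fatty acid binding protein also made in endothelium, and 0.906, 1.35 and 2.71 for Pparg, the adipocyte transcription factor. These markers were not all higher there. Srebf1 was highest of its group in 2 of the 3 libraries, with ratios of 0.862, 1.2 and 1.17. Me1 (1.06, 1.18 and 0.978), Mlxipl (1.08, 1.02 and 1.12) and Acacb (1.19, 1.0 and 1.0) were highest in 1 each. Acly and Elovl6 stood apart in 1 of the 3 libraries, labelled strNrip1-/- sedentary replicate 3, at ratios of 2.05 and 2.81. Acaca was above the others of its group in both labelled strNrip1-/- libraries, with ratios of 1.48, 0.920 and 1.78. With the adipocyte score as a covariate, the sedentary genotype difference was 0.09 for Fasn and 0.01 for Scd1, and that of Srebf1 was -0.94.

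**Figure D3:**
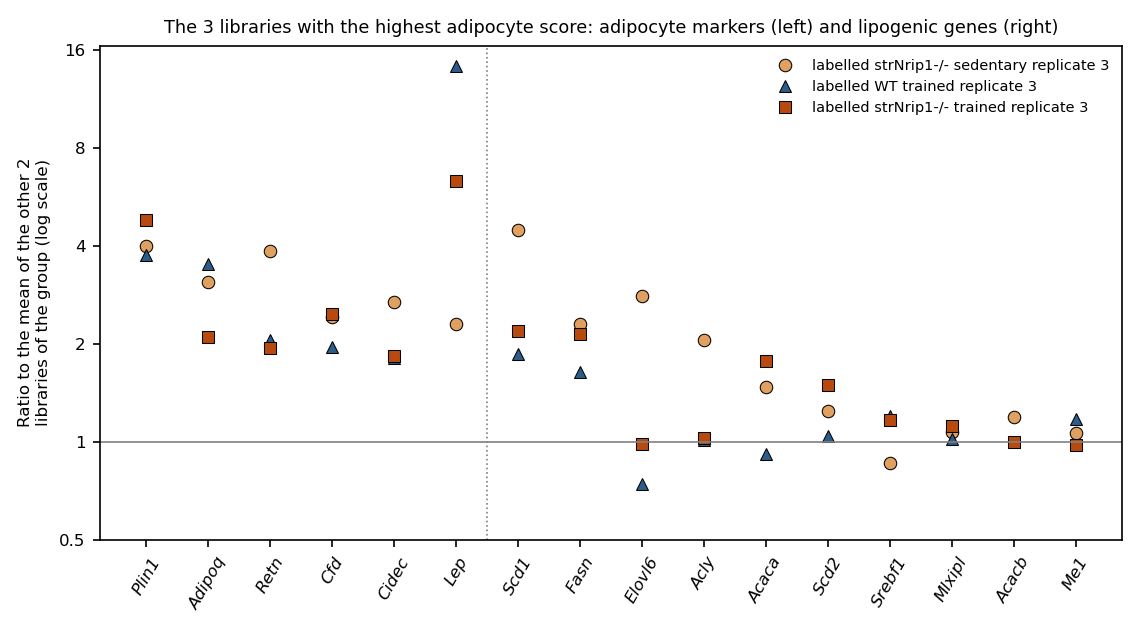
Ratio (log axis) of each of the 3 libraries with the highest adipocyte score to the mean of the other 2 libraries of its group, for 6 adipocyte markers, 5 of which form the score, and the 10 lipogenic genes; the line at 1 marks no difference. Scd1, Fasn and Scd2 lie above 1 in all 3 libraries, whereas Srebf1, Mlxipl, Acacb and Me1 lie between 0.862 and 1.2. The 6 markers plotted are those of the 11 listed that were highest of their group in all 3 libraries. Among those not plotted, Pck1, Slc7a10, Fabp4 and Pparg each fell below 1 in at least 1 library.

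Fasn and Scd1 were also read in muscles with little fat RNA. Labelled WT sedentary replicate 3 had the lowest Adipoq, 0.791 FPKM, and still held 5.39 FPKM of Fasn, 12.9 FPKM of Scd1 and 11.8 FPKM of Acly. All 3 values were the highest among the labelled WT sedentary libraries. Its ratio of Fasn to Adipoq was 6.81 and that of Scd1 to Adipoq 16.3, the highest of the 12 libraries, whereas the lowest ratios were 0.956 and 3.03. The 9 libraries outside the high cluster were used to test whether members followed the adipocyte score. The score chose these libraries and ran only from 0.905 to 1.95 in them, against up to 3.23 in the 3 left out. A narrower range weakens a correlation, so the lack of one here does not show that members did not follow the score. Of the 9 members tested 0 passed Benjamini-Hochberg adjustment and 0 an unadjusted p under 0.05 (exact two-sided permutation tests over 9 libraries). With the 3 libraries included, 2 passed by Pearson r, Fasn at 0.86 and Scd1 at 0.84 (permutation adjusted p = 0.00364 for both). Neither passed by rank, at rho 0.76 and 0.58 (permutation adjusted p = 0.0540 and 0.213). In the 9 libraries r for Fasn was 0.24 and rho 0.42 (exact permutation p = 0.497 and 0.270, adjusted 0.799 and 0.605), and r was 0.49 without the 2 libraries farthest from the median score. For Scd1, r was 0.14 and rho 0.02 (exact permutation p = 0.717 and 0.982, adjusted 0.922 and 0.982), and r was 0.32 without those 2. For Me1, r was -0.47 and rho -0.52 (exact permutation p = 0.201 and 0.162, adjusted 0.452 and 0.605). Subtracting each group's mean, a choice added after seeing the data, turned several of these signs, and 0 members passed adjustment. Me1 was then at r = 0.58 and rho 0.77 (exact permutation p = 0.0945 and 0.0214, adjusted 0.213 and 0.0963), Srebf1 at r = 0.58 against -0.58 before, and Fasn at -0.41. Acaca was then at r = 0.88 and rho 0.77 (exact permutation p = 0.00679 and 0.0214, adjusted 0.0611 and 0.0963), and at r = 0.30 without the 2 libraries farthest from the median score. With group means subtracted, the values of a group depend on each other, so the p-values of that setting are too small. Fasn and Scd1 from adipocytes and from muscle fibers cannot be told apart in these libraries.

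**Figure D4:**
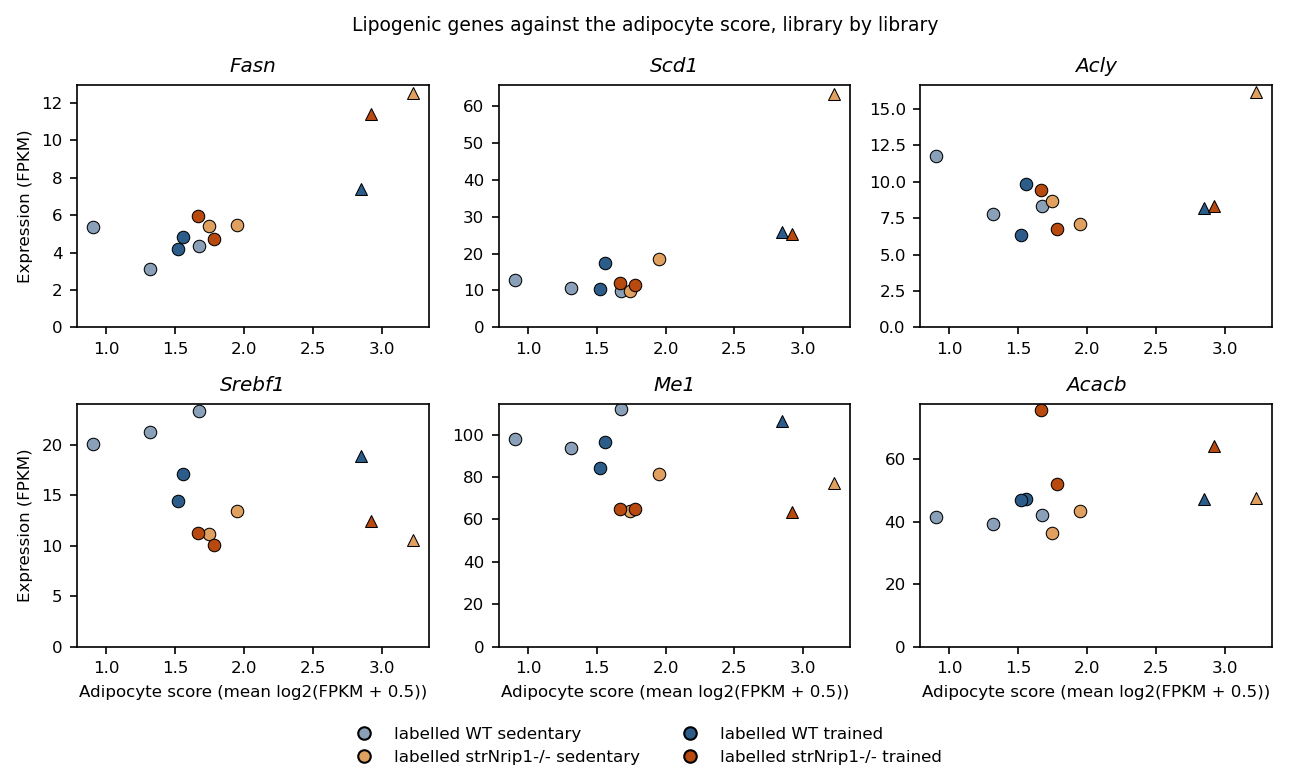
Expression (FPKM, linear axes from 0) of 6 lipogenic genes against the adipocyte score (mean log2(FPKM + 0.5) of 5 adipocyte genes) in the 12 libraries, colored by group, with triangles for the 3 libraries of highest score. Fasn and Scd1 are highest in those 3 libraries, whereas the highest values of Srebf1, Me1 and Acacb belong to other libraries.

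Acly and Scd2 were not called between labelled genotypes, and Elovl6 was below the filter. Acly was 8.34, 7.77 and 11.8 FPKM in labelled WT and 7.10, 8.70 and 16.2 FPKM in labelled strNrip1-/- sedentary libraries, and 6.38 to 9.85 against 6.75 to 9.44 FPKM in trained ones. Its groups overlapped, with log2 differences of 0.13 (95% interval -0.47 to 0.72) and 0.01 (95% interval -0.58 to 0.61). Scd2 was 6.07 to 6.66 against 4.73 to 6.74 FPKM in sedentary and 5.5 to 5.80 against 4.07 to 6.13 FPKM in trained libraries. Its differences were -0.12 (95% interval -0.46 to 0.21) and -0.24 (95% interval -0.58 to 0.09). Elovl6, which was not tested, was 0.309 to 0.434 against 0.351 to 1.12 FPKM in sedentary and 0.234 to 0.635 against 0.295 to 0.304 FPKM in trained libraries, and its groups overlapped.

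Training changed no member past the threshold in either labelled genotype. In labelled WT libraries 0 of 9 members were called by limma and 1 reached an unadjusted p under 0.05, beside 0% of 12744 genes called and 1061 genes unadjusted. That member was Srebf1, which was 23.4, 21.3 and 20.1 FPKM in sedentary and 17.2, 14.4 and 18.9 FPKM in trained labelled WT libraries. All trained values lay below all sedentary values, with a log2 difference of -0.36 (SE 0.123, limma adjusted p = 0.489). Acacb was higher without overlap, 39.2 to 42.2 against 47.0 to 47.2 FPKM, at 0.20 (SE 0.126, limma adjusted p = 0.726). Scd2 was lower without overlap, 6.07 to 6.66 against 5.5 to 5.80 FPKM, at -0.16 (SE 0.153, limma adjusted p = 0.845). The summed level of 6 Schwann cell markers was 107 to 154 FPKM in sedentary and 75.8 to 102 FPKM in trained labelled WT libraries, and that of 4 fibroblast markers 284 to 316 against 345 to 392 FPKM. None of these markers was called, and their part in the differences was not tested. The other 6 members tested overlapped between sedentary and trained labelled WT libraries. The share of all genes whose groups did not overlap was not counted, here or in the other comparisons.

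In labelled strNrip1-/- libraries 0 of 9 members were called by limma for training and 1 reached an unadjusted p under 0.05, beside 0% of all genes called and 1544 genes unadjusted. That member was Acacb, at 43.5, 36.4 and 47.6 FPKM in sedentary and 52.2, 75.8 and 64.1 FPKM in trained libraries. Every trained value lay above every sedentary value, a log2 difference of 0.58 (SE 0.126, limma adjusted p = 0.200). Mlxipl was higher without overlap, 31.1 to 36.3 against 37.0 to 43.9 FPKM, at 0.24 (SE 0.112, limma adjusted p = 0.424). Elovl6 was lower without overlap, 0.351 to 1.12 against 0.295 to 0.304 FPKM, below the filter. Me1 was 64.2 to 81.3 against 63.3 to 64.8 FPKM, which overlapped, at -0.20 (95% interval -0.44 to 0.04).

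The difference between the genotype effects of trained and sedentary mice was tested as an interaction. Of the 9 members 0 were called by limma and 0 reached an unadjusted p under 0.05, beside 0% of all genes called and 989 unadjusted. Acacb came closest, at 0.38 (SE 0.178, limma adjusted p = 0.640). Srebf1 was at 0.30 (95% interval -0.08 to 0.68), which spans equal effects and a genotype difference much smaller in trained mice. Me1 was at -0.12 (95% interval -0.45 to 0.22). Scd1 had the widest interval, -2.90 to 0.61 around -1.14, and without the 3 libraries of high adipocyte score its interaction was -0.47.

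The genes around the pathway were read from 7 lists of 71 genes, 67 of which were tested. In sedentary libraries 2 were called higher and 0 lower in labelled strNrip1-/- libraries, with 14 at an unadjusted p under 0.05, beside 3.51% of all genes called. In trained libraries 8 were called higher and 0 lower, with 18 unadjusted, beside 5.98% of all genes. These shares are the background of the counts by list that follow. The median log2 difference over the lists was 0.07 in both states. Training and the interaction gave 0 calls by limma, with 2 genes at an unadjusted p under 0.05 for training in labelled WT, 17 in labelled strNrip1-/- and 4 for the interaction.

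Among 9 genes of precursor supply, sedentary libraries gave 1 call and trained ones 2. Acss2, which makes acetyl-CoA from acetate in cytosol and nucleus and is a known SREBP target, was 16.8, 25.7 and 22.3 FPKM in labelled WT and 33.1, 29.7 and 32.6 FPKM in labelled strNrip1-/- sedentary libraries. It was 20.9, 25.3 and 21.9 against 35.5, 36.5 and 39.3 FPKM in trained ones. The groups did not overlap in either state, opposite in direction to Srebf1 in the same libraries, and the log2 differences were 0.57 and 0.70 (limma adjusted p = 0.0411 and 0.0117). The sedentary call was lost under 16 of 24 alternative settings, 10 of them leaving out a single library, with adjusted p up to 0.182, and the trained call under 3 of 24. Acss1, its mitochondrial counterpart, was called in trained libraries, 6.68 ± 0.532 against 9.65 ± 1.25 FPKM (SD, n = 3 each), at 0.49 (limma adjusted p = 0.0247). Of 5 modifiers of the carboxylases and the synthase, sedentary libraries gave 0 calls and trained ones 2. Mid1ip1, which promotes polymerization of acetyl-CoA carboxylase, was 18.5, 39.9 and 24.8 FPKM in labelled WT and 59.3, 86.4 and 70.8 FPKM in labelled strNrip1-/- trained libraries, at 1.42 (SE 0.268, limma adjusted p = 0.0115). Mlycd, the malonyl-CoA decarboxylase that removes the carboxylase product, was 37.2, 42.8 and 43.5 against 63.7, 91.3 and 63.9 FPKM, at 0.80 (SE 0.126, limma adjusted p = 0.00461). Neither pair of groups overlapped, and Mlycd was called under all 24 alternative settings. The ratio of Acacb to Mlycd was 0.918 to 1.07 against 0.798 to 0.985 in sedentary and 1.09 to 1.27 against 0.819 to 1.0 in trained libraries.

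Of 7 genes of glycerolipid synthesis, sedentary libraries gave 0 calls and trained ones 3. Dgat2, which makes triglyceride from diglyceride, was 16.5, 21.2 and 18.0 FPKM in labelled WT and 35.1, 64.4 and 51.9 FPKM in labelled strNrip1-/- trained libraries, at 1.38 (SE 0.213, limma adjusted p = 0.00415). Lpin1, a phosphatidate phosphatase, was 9.55 ± 2.07 against 21.1 ± 5.85 FPKM and Agpat2, an acyltransferase of phosphatidate synthesis, 3.72 ± 0.781 against 7.03 ± 1.08 FPKM (SD, n = 3 each), at 1.08 and 0.84 (limma adjusted p = 0.0161 for both). In sedentary libraries these 3 genes were also higher but not called, Dgat2 at 0.86, Lpin1 at 0.72 and Agpat2 at 0.61 (limma adjusted p = 0.0528, 0.111 and 0.0843). Among 19 genes of cholesterol synthesis, 1 was called in each state. Sc5d, a sterol desaturase, was 9.04 ± 0.808 against 13.0 ± 1.73 FPKM in sedentary libraries, at 0.50 (limma adjusted p = 0.0307), and Fdft1, squalene synthase, was 50.8 ± 1.62 against 83.8 ± 6.48 FPKM in trained libraries, at 0.71 (limma adjusted p = 0.0347). The Fdft1 call was lost under 11 of 24 alternative settings and held in 3 of 12 that left out a single library, with an adjusted p of 0.123 without labelled strNrip1-/- trained replicate 3, and the Sc5d call was lost under 10 of 24. None of the 10 genes of SREBP processing, the 5 of the ChREBP group or the 12 elongases and desaturases tested was called in either state. Without the 3 libraries of high adipocyte score 2 genes of the lists, Mlycd and Fdft1, were called in trained libraries, and neither Acss2 nor Sc5d was called in sedentary ones.

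**Figure D5:**
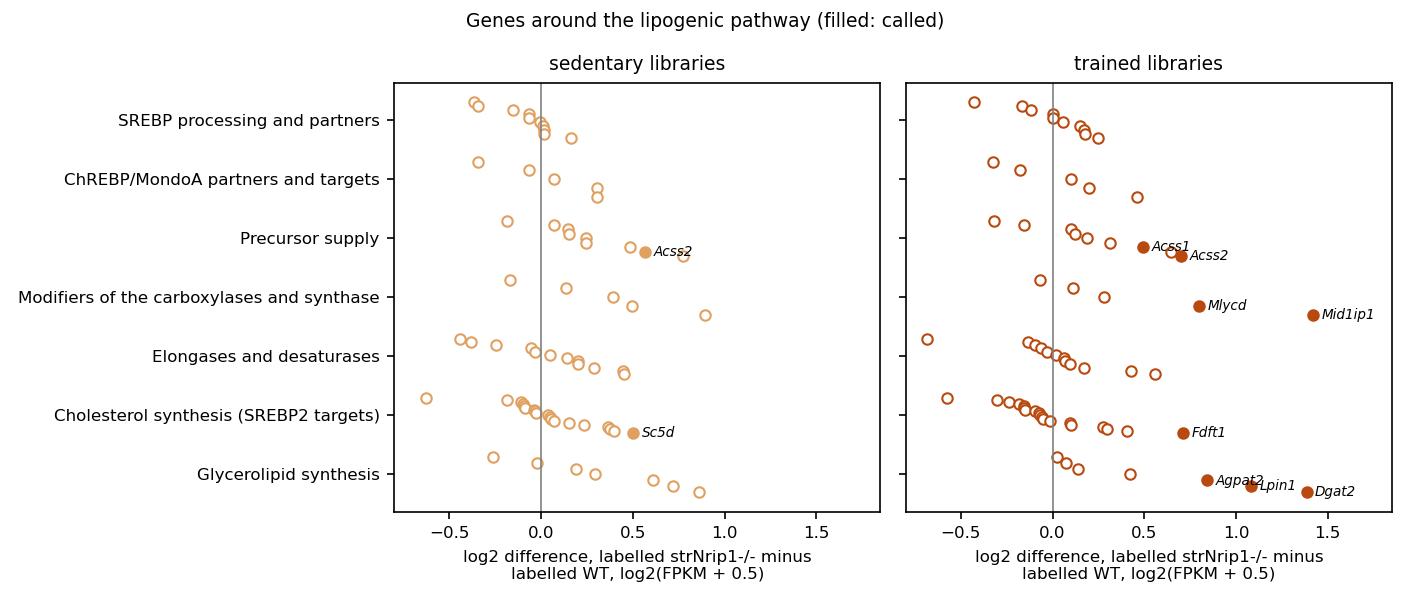
Log2 difference on log2(FPKM + 0.5) between labelled strNrip1-/- and labelled WT libraries for 67 genes of 7 lists around the lipogenic pathway, 1 point per gene, in sedentary (left) and trained (right) mice. Filled points were called and are named; all 2 sedentary and 8 trained calls lie to the right of 0.

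Apart from the group means, the members varied together in part. In the 9 libraries outside the high cluster, with each group's mean subtracted, 5 of 36 pairs passed Benjamini-Hochberg adjustment of exact two-sided permutation tests and 9 an unadjusted p under 0.05. The pairs were Srebf1 with Mlxipl, Acaca and Me1, Acly with Fasn, and Scd1 with Scd2. For Srebf1 and Me1, r was 0.87 and rho 0.85 (exact permutation p = 0.00364 and 0.00607, adjusted 0.0348 and 0.0437), and r was 0.79 without the 2 libraries farthest from the median of Srebf1. For Scd1 and Scd2, r was 0.82 and rho 0.90 (exact permutation p = 0.00427 and 0.00203, adjusted 0.0348 and 0.0365), and r was 0.56 without the 2 farthest. Subtracting means leaves the values of a group dependent on each other, so these p-values are too small. The count of pairs was 0 without labelled WT trained replicate 1 or without replicate 2 of that group, and 8 and 9 without labelled WT sedentary replicates 1 and 3.

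The genes most like the members over all 12 libraries were named as a description. Nearest to Srebf1 were Cacng6, a calcium channel subunit of muscle (r = 0.98), Hcn4, a pacemaker channel present at a mean of 0.510 FPKM (r = 0.97), and the chemokine gene Ccl25 (r = 0.97). Nearest to Me1 were Tmem233, Car3, the carbonic anhydrase of muscle and fat, and Rmnd5a, each at r = 0.97. These values were 0.96 or more also in the 9 libraries outside the high cluster. Nearest to Fasn were Plin1, Olfr571 and Mup10, and nearest to Scd1 were Serpina3c, Prkar2b and Plin1. Plin1 was at r = 0.63 with Fasn and 0.59 with Scd1 in the 9 libraries. The points share their libraries, and values that differ between groups raise r for every pair of genes that differ in the same way.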

How the data were processed

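RNA-seq libraries of EDL muscle were examined, 12 in all. Per the study's methods and the submitters' processing notes, the authors extracted total RNA with DNase treatment, made libraries with an unstranded kit, quantified transcripts with Salmon 1.10.2 against mm10, imported gene sums through tximport and ran DESeq2 1.44.0. Without strand, reads of overlapping antisense genes cannot be told apart, and how reads shared by Scd1 and Scd2 or other related genes were divided was not examined here. The deposited table holds FPKM per gene and library. It also holds fold changes, deposited by the authors as log2 values, and p-values, computed and deposited by the authors, neither of which was used. How FPKM were derived from the gene sums, and with which annotation release, is not given in the sources used here.

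FPKM are not counts, so log2(FPKM + 0.5) was fitted for the 12744 genes averaging 0.5 FPKM or more with limma 3.58.1 (R 4.3.3), with 4 group means over all 12 libraries and a mean-dependent prior variance. Two-sided p-values were adjusted by Benjamini-Hochberg over all genes tested in a comparison, and the scripts were tested on simulated data. A gene was called at an adjusted p under 0.05 and a fold change above 1.2, as in the study. For the interaction no fold change was required. Fold changes on this scale understate those of low genes. The labels do not say that replicates came from separate animals, so p-values measure the spread between these libraries only. No pair of libraries shared identical values above 0. Depth was estimated from 1619 genes with a single transcript over 1500 nt, whose low values came to whole fragments (tolerance 0.15) in 98.6% to 100% of cases, where 30.0% would by chance. It covers counting error only. Of the gene identifiers, 17745 matched GENCODE M21.

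All 10 members are named in each comparison where they bear on it. Of the pathway lists at most 12 genes were to be named, those called in most comparisons, and 9 were called. The 3 genes most like Srebf1, Fasn, Scd1 and any member called are named by Pearson r. The members, lists and thresholds were chosen with earlier results of these data known. Correlations had been planned over all 12 libraries. Because 3 libraries stood apart in the adipocyte score, they were computed within the other 9, a choice made after seeing the data. Each list of cell type markers, those of macrophages and brown fat included, had 0 genes called in every comparison.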

Additional observations from a re-analysis of the deposited data

How the results depend on the processing

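The members called numbered 2 in each genotype comparison. In sedentary libraries 1 member, Srebf1, was called with no filter, with each library rescaled to the same sum or to the same sum of nuclear genes, with quantile normalization, with only the groups compared, with no mean trend, and without the 3 libraries of highest adipocyte score, a setting added after seeing the data; leaving out each library in turn gave 1 to 2. In trained libraries the count was 0 with either rescaling and without those 3 libraries, 1 with only the groups compared, and 0 to 3 on leaving out each library, with 0 without labelled WT trained replicate 3. Rescaling to the same sum moved the median of all genes by -0.14 in sedentary and 0.06 in trained libraries. Training and interaction counts were 0 under all alternatives run; the interaction could not be fitted with only the groups compared. For the genes around the pathway, sedentary calls numbered 1 with no filter, no mean trend or the adipocyte covariate, 4 with either rescaling or quantile normalization, 0 with only the groups compared, and 0 to 3 on leaving out each library; trained calls numbered 2 without the 3 libraries and 3 to 11 on leaving out each library. The pathway alternatives were chosen after seeing the data. Signs turned for Mlxipl in sedentary libraries (0.036 with nuclear sums; -0.080 to 0.029 on leaving out each library, above 0 without labelled strNrip1-/- sedentary replicate 2), Acacb in sedentary libraries (-0.11 with the same sum, -0.027 with the covariate, -0.040 without the 3 libraries, -0.040 to 0.15 on leaving out each library, below 0 without labelled strNrip1-/- sedentary replicate 3), Fasn in trained libraries (-0.00360 to 0.59 on leaving out each library, below 0 without labelled strNrip1-/- trained replicate 3), Scd1 for training in labelled WT (-0.092 with the covariate) and the Me1 interaction (0.10 with the same sum, 0.00487 without the 3 libraries). None of these had been called. The cause of these changes was not tested. With all 12 libraries 2 members, Fasn and Scd1, passed against the adipocyte score by Pearson r, and 3 pairs of members passed. With group means subtracted 0 members passed in the 9 libraries. Over all 12 libraries r with group means subtracted was 0.82 for both Fasn and Scd1, which was not tested. Quantile normalization left 2 pairs, and leaving out each of the 9 libraries gave 0 to 9.

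With the replicate number as a block, 2 members were called in each genotype comparison (Me1 adjusted p = 0.0259 in sedentary libraries), 0 for training and interaction, and 4 and 9 genes around the pathway in sedentary and trained libraries. Over all genes the counts were 441 and 756 against 447 and 762. Same-numbered libraries correlated over 0.1 in 5 of 18 pairs of groups (-0.105 to 0.241), and a library correlated best with its own number in 12 of 36 comparisons. The labels give no pairing, and none was used. The 3 libraries of highest adipocyte score were all replicate 3, whereas labelled WT sedentary replicate 3 had the lowest score. Whether same-numbered libraries shared a litter, a cage or handling cannot be told from these correlations.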
